A study of Mus musculus with 12 samples.

Results

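*Gpr37l1*, *Gpr37* and *Psap* encode a pair of glial receptors and the protein from which their proposed ligand is made, and they were taken by name from a gene table of cultured mouse astrocytes. The table analysed here held rows for 2 of the 3 named genes, *Gpr37l1* and *Psap*, among 18903 genes in all, and *Gpr37* was not analysed here. The genes were chosen by their role as receptors and ligand precursor and with their counts across the 6 groups already known, so their own levels and differences are given as a description, with errors and without a test. Tests are given for other genes of the same pathways.

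The libraries were mRNA sequencing of primary astrocytes grown from mouse brains taken at postnatal days P1, P6 and P8, with 2 libraries per label and time point and 12 in all. Mice labelled WT were hGFAP-cre::Rack7 +/+ and mice labelled Rack7-cKO (cKO here) were hGFAP-cre::Rack7 fl/fl, with loxP sites around exons 3 and 4 of *Rack7* (*Zmynd8*, a chromatin reader), so both labels carried the Cre. The hGFAP promoter is also active in radial glia and neural progenitors, so deletion need not be limited to astrocytes. Brains were stripped of meninges, and the cultures were shaken to remove microglia and oligodendrocytes before RNA was taken. The labels do not say whether the 2 libraries of a group came from separate animals, and p-values measure the spread between these libraries.

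The RNA of the targeted gene was not lower in the libraries labelled cKO. *Zmynd8* stood at between 99.98 and 136 CPM, reads of a gene scaled per library to a common total after TMM scaling, in the 6 libraries labelled WT and between 160.4 and 242 in the 6 labelled cKO, higher in those labelled cKO by 0.65, 1.04 and 0.70 on the log2 scale at P1, P6 and P8 (adjusted p = 3.16e-05, 4.97e-07 and 3.78e-06, edgeR). Counts over the whole gene do not show whether exons 3 and 4 were present, so every direction below is between libraries labelled cKO and libraries labelled WT. The paper checked RACK7 protein in WT and cKO primary astrocytes by immunoblot. It also reports far fewer RACK7 binding sites on chromatin in cKO astrocytes. Total counts lay between 54413504 and 89183250 per library. Astrocyte markers were present, with *Aqp4* (the astrocyte water channel) at a mean of 419.5 CPM and *Gfap* at 397.6 CPM over all libraries. So were markers of other cells. The 7 fibroblast markers summed to 496 CPM in WT and 2742 in cKO at P1, to 7732 and 2624 at P6 and to 30209 and 8261 at P8. The 12 microglia markers summed to between 3599.5 and 7789.5 CPM per library, and none of them was at 0 in any library. Mural markers summed to between 1724 and 2887 CPM per library. Oligodendrocyte lineage markers summed to between 177 and 275 CPM per library, neuron markers to between 50.4 and 232, endothelial markers to between 23.9 and 162 and ependymal and choroid plexus markers to between 29.6 and 232.

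GPR37L1 and GPR37 are seven-membrane-pass receptors that couple to inhibitory Gi/o proteins and resemble the endothelin and bombesin receptors. In the brain GPR37L1 is found mostly in astrocytes and GPR37 mostly in oligodendrocytes. Prosaposin, the product of *Psap*, is cut in the lysosome into saposins, small proteins that present sphingolipids to the enzymes that break them down. Part of it is secreted, and the secreted form and peptides from it have been proposed as ligands of both receptors, a pairing that is still debated.

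*Gpr37l1* (ENSMUSG00000026424) lies on the minus strand of GRCm38 at chr1:135160234-135167681, with 1 annotated transcript of 2 exons and 2269 exon bases. *Psap* (ENSMUSG00000004207) lies on the plus strand at chr10:60277627-60302597, with 5 annotated transcripts, 17 merged exons and 2744 exon bases. No annotated gene overlaps either one. The 250 bases before each RefSeq start (GRCm38.p6) are shown so that the 2 starts can be set side by side, at chr1:135167682-135167931 for *Gpr37l1* and chr10:60277378-60277627 for *Psap*, each on its gene's strand and with CG dinucleotides in capitals.
Gpr37l1: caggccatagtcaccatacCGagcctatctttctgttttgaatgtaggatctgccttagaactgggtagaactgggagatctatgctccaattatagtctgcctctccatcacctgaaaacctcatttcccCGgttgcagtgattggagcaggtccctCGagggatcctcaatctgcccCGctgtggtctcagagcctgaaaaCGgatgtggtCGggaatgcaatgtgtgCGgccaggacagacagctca
Psap: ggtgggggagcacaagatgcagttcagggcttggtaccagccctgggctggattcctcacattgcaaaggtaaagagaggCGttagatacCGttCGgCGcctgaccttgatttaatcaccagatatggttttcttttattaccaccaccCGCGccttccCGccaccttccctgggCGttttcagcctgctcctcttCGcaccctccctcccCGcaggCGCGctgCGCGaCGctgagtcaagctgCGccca
The *Gpr37l1* window held 7 CG dinucleotides at 52% G and C, and the *Psap* window held 16 at 58.8%. Of 32841 such windows, 53.7% held fewer than the *Gpr37l1* window and 74.6% fewer than the *Psap* window. The RNA counts do not measure these windows.

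*Gpr37l1* was higher in libraries labelled cKO at all 3 time points, and the gap was widest at P1 and narrowest at P8. At P1 it stood at 14.4 and 16.3 CPM in the 2 libraries labelled WT and at 81.1 and 82.2 CPM in those labelled cKO. At P6 the values were 48.5 and 54.8 CPM in WT and 145.0 and 155.8 in cKO. At P8 they were 27.3 and 26.3 CPM in WT and 38.3 and 40.9 in cKO. Both cKO libraries lay above both WT libraries at each time point. The raw counts behind these values ran from 859 to 10016 reads.

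The difference in *Gpr37l1*, cKO over WT, was 2.41 ± 0.0875 (SE) on the log2 scale at P1, a 5.32-fold higher level. The P6 difference was 1.54 ± 0.0843, or 2.91-fold, and the P8 difference 0.57 ± 0.0834, or 1.48-fold, just under the 1.5-fold limit used for calls. Over all 17938 genes tested, the median difference was 0 at P1 and P6 and 0.0119 at P8. A larger log2 difference than that of *Gpr37l1* was held by 2.08%, 4.34% and 17.7% of genes on the 3 days. The change in its log2 difference was -0.87 ± 0.118 from P1 to P6 and -0.98 ± 0.117 from P6 to P8.

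**Figure D1:**
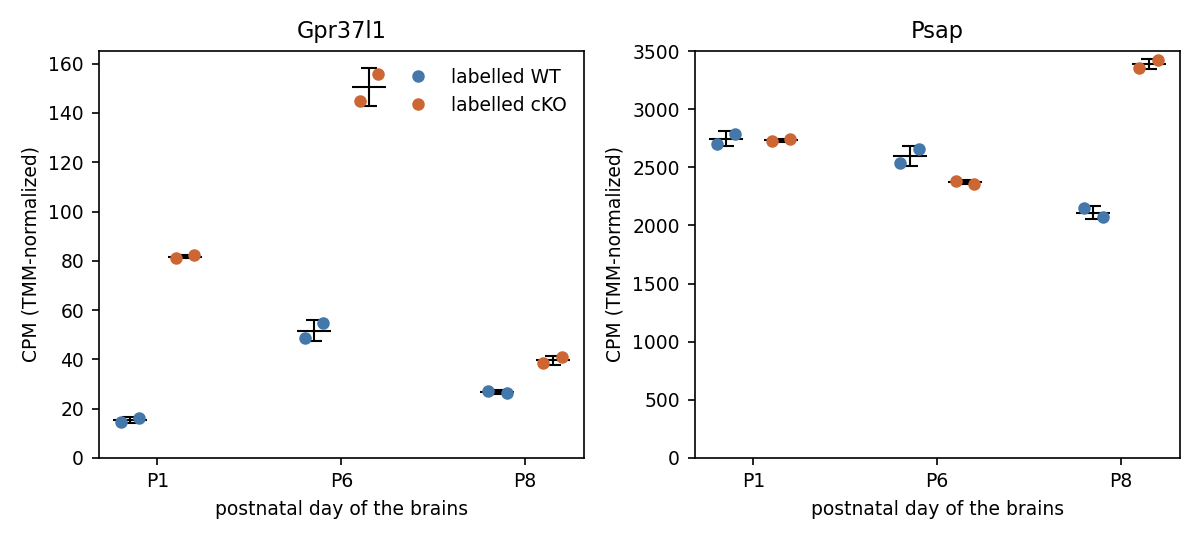
Levels of Gpr37l1 (left) and Psap (right) in CPM after TMM scaling for each of the 12 libraries, by postnatal day and label; points are libraries, and the horizontal line and bar are the mean and SD of 2. Gpr37l1 is higher in both libraries labelled cKO on each day and peaks at 150.4 CPM in cKO at P6, while Psap stays between 2072 and 3421 CPM and is highest in cKO at P8.

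Under both labels *Gpr37l1* had its highest level at P6. The means, with n = 2 each, were 15.3 ± 1.32 (SD), 51.6 ± 4.39 and 26.8 ± 0.698 CPM at P1, P6 and P8 in WT. In cKO they were 81.7 ± 0.745, 150.4 ± 7.64 and 39.6 ± 1.86 CPM. The 6 groups ran from cKO at P6, through cKO at P1, WT at P6, cKO at P8 and WT at P8, down to WT at P1. No neighbours in that order overlapped, and the top was 9.81 times the bottom. From P1 to P6 the level was higher by 1.75 ± 0.0857 (SE) on the log2 scale in WT and by 0.88 ± 0.083 in cKO. From P6 to P8 the log2 difference was -0.95 ± 0.0838 in WT and -1.92 ± 0.0853 in cKO. On a scale of CPM per kilobase of exon, which allows genes to be compared, *Gpr37l1* stood above 62.75% of 17902 genes in WT at P1 and above 96.5% in cKO at P6.

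In bulk RNA, fewer cells of a type and less RNA per cell cannot be told apart, so the level of *Gpr37l1* was set beside that of the astrocyte markers. At P1 the 14 markers measured summed to 2709 to 2772 CPM in WT and 2814 to 2855 in cKO. At P6 they summed to 2165 to 2349 CPM in WT and 2114 to 2295 in cKO, and at P8 to 2254 to 2632 in WT and 1106 to 1118 in cKO. Thus the summed markers lay within a narrow span at P1, overlapped at P6 and were lower in cKO at P8. At P8, 8 of 14 astrocyte markers fell and 0 rose (0 also at an unadjusted p), against 8.37% of all genes called lower and 11.2% higher. A call means a Benjamini-Hochberg adjusted p below 0.05 in edgeR and a fold change of at least 1.5. At an unadjusted p below 0.05 with the same fold change, 6.39% of all genes were higher and 2.48% lower for P1. The shares for P6 were 8.95% and 7.94%, and those for P8 were 12.7% and 9.71%. *Aqp4* fell by 2.01 on the log2 scale (adjusted p = 7.87e-08) and *Gfap*, the astrocyte filament protein, by 1.07 (adjusted p = 9.68e-07). *Glul*, glutamine synthetase, differed by -0.33 and was not called. By the adjusted p alone, at any fold, 11 of the 14 markers were lower and 1 higher, against 14.8% and 19.6% of all genes. The higher one was *Aldh1l1*, named after its values were seen, at means of 51.8 CPM in WT and 72.7 in cKO.

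At P1 2 of 14 astrocyte markers rose and 0 fell (0 at an unadjusted p), against 4.01% of all genes higher and 0.892% lower. One of them was *S100b*, which encodes a calcium-binding protein, at a log2 difference of 0.90 (adjusted p = 0.0407), named after its value was seen. At P6 1 rose and 1 fell, the latter the glycolytic enzyme gene *Aldoc* at -0.74 (adjusted p = 0.000685), against 7.16% of all genes higher and 6.38% lower. The median log2 difference over the 14 markers was 0.0422, -0.0224 and -0.981 on the 3 days in turn, where *Gpr37l1* itself stood at 2.41, 1.54 and 0.57.

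**Figure D2:**
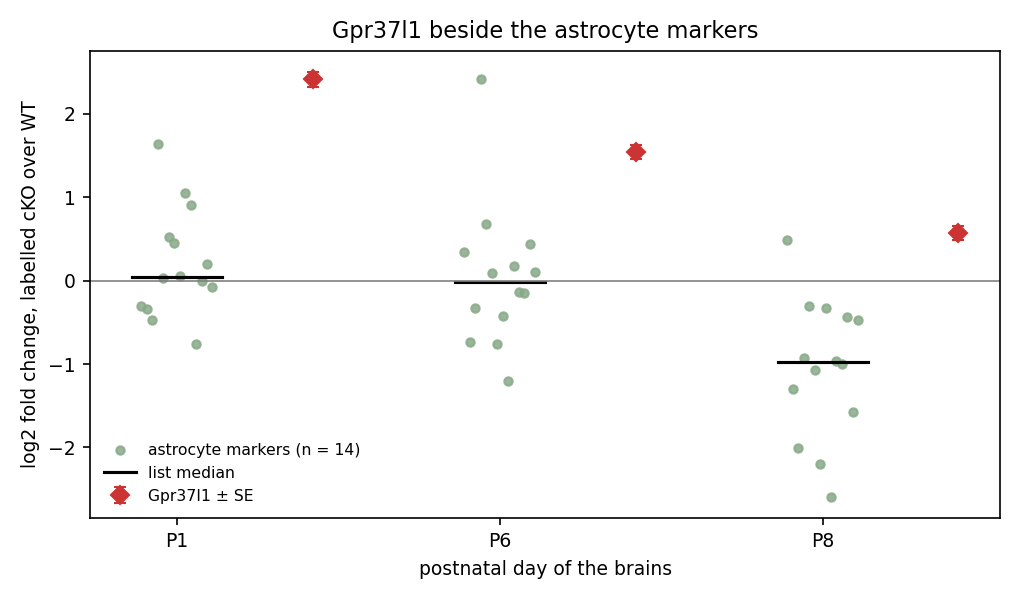
Log2 fold change, labelled cKO over labelled WT, of the 14 astrocyte markers (circles, with their median as a line) and of Gpr37l1 (diamond, ± SE) at P1, P6 and P8. Gpr37l1 lies above every marker at P1 and P8, and at P6 1 marker lies above it.

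Per 1000 CPM of summed astrocyte markers, *Gpr37l1* stood at 5.32 and 5.87 CPM in the WT libraries at P1 and at 28.8 in both cKO libraries. The values at P6 were 22.4 and 23.3 in WT and 68.6 and 67.9 in cKO. At P8 they were 12.1 and 9.99 in WT and 34.6 and 36.6 in cKO. On this scale too the cKO libraries lay above the WT libraries on each day, and at P8 the gap was wider than in CPM, the markers themselves being lower in cKO. The fibroblast markers moved with the label as well, 6 of 7 rising at P1 (4.01% of all genes), 6 of 7 falling at P6 (6.38%) and 7 of 7 falling at P8 (8.37%). The sum of the mural markers was higher in cKO on all 3 days. Its means for P1, P6 and P8 were 1727, 2229 and 1818 CPM in WT and 2571, 2706 and 2216 in cKO. Most of it was *Acta2*, a smooth muscle actin gene, at 1677, 2044 and 1588 CPM in WT and 2496, 2584 and 2046 in cKO. By contrast *Pdgfrb*, *Rgs5* and *Vtn* were lower in cKO at P6 and P8. At P1 *Pdgfrb* and *Vtn* were higher in cKO and *Rgs5* was lower. *Rgs5* and *Vtn* were scarce at P1, with group means between 0.818 and 1.52 CPM. The sign of *Rgs5* was not stable at P1 (log2 difference 0.07687 without the second cKO library of P1). Nor was it at P8 (0.09591 without the second WT library of P8 and 0.01717 without the second cKO library). Of the 4 mural markers measured, 1 rose at P1 (4.01% of all genes) and 3 fell at P6 (6.38%). None was called at P8, against 11.2% of all genes higher and 8.37% lower (1 lower at an unadjusted p, against 9.71%). The part of either list in the difference of *Gpr37l1* was not tested.

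*Psap* was one of the most abundant transcripts of the cultures, and it differed between the labels mainly at P8. At P1 the libraries labelled WT held 2703 and 2791 CPM and those labelled cKO 2725 and 2742. At P6 they held 2538 and 2659 CPM in WT and 2385 and 2359 in cKO. At P8 they held 2148 and 2072 CPM in WT and 3356 and 3421 in cKO. The labels overlapped at P1, the cKO libraries lay below the WT libraries at P6, and they lay above them at P8. Per kilobase of exon *Psap* ranked between 30 and 35 of 17902 genes from the top in all 6 groups, and it took 0.204% to 0.323% of all counts in a library.

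The difference in *Psap*, cKO over WT, was -0.0071 ± 0.0313 (SE) on the log2 scale at P1, where the sign was not stable (0.01681 without the second WT library of P1), and -0.13 ± 0.0314 at P6. At P8 it was 0.68 ± 0.0315, a 1.61-fold higher level in cKO, with 14.5% of all genes at a larger difference. The change in the log2 difference from P6 to P8 was 0.81 ± 0.0444, where that of *Gpr37l1* was -0.98 ± 0.117. So the label difference of the receptor gene was smaller at P8 than at P6 and that of the ligand precursor gene was larger.

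Group means of *Psap*, with n = 2 each, were 2747 ± 62.1 (SD), 2598 ± 85.6 and 2109.9 ± 53.8 CPM at P1, P6 and P8 in WT. In cKO they were 2733.5 ± 12.05, 2372 ± 18.8 and 3389 ± 46.0 CPM. From P6 to P8 the log2 difference was -0.30 ± 0.0314 (SE) in WT and 0.51 ± 0.0314 in cKO, opposite in sign. Levels ran from cKO at P8 down through WT and cKO at P1, WT at P6 and cKO at P6 to WT at P8. The 2 groups of P1 overlapped and no other neighbours did. The top was 1.61 times the bottom, against 9.81 times for *Gpr37l1*.

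Per kilobase of exon, *Psap* exceeded *Gpr37l1* in every library, by a ratio that differed widely between groups. The ratio was 155.2 and 141.8 in the WT libraries at P1 and 27.8 and 27.6 in the cKO libraries. It was 43.2 and 40.2 in WT and 13.6 and 12.5 in cKO at P6. At P8 it was 65.1 and 65.2 in WT and 72.4 and 69.1 in cKO. The ratio was lower in cKO at P1 and P6 and slightly higher in cKO at P8, the one day on which both genes were higher in cKO.

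*Psap* did not stand alone at P8. Of 20 other genes measured that sort prosaposin or break down sphingolipids, 8 rose in cKO at P8 and 0 fell (0 at an unadjusted p and by DESeq2), against 11.2% of all genes higher. By the adjusted p alone, at any fold, 15 of the 20 were higher and 2 lower, against 19.6% and 14.8% of all genes. The protease genes were among them. *Ctsd*, cathepsin D, which cuts prosaposin, stood at 5829 and 5581 CPM in the WT libraries and 12513 and 12542 in the cKO libraries, a rise of 1.13 on the log2 scale (adjusted p = 4.53e-08). *Ctsb*, cathepsin B, stood at 3756 and 3684 CPM in WT and 8995 and 9000.7 in cKO, a rise of 1.27 (adjusted p = 2.23e-09). The cathepsin gene *Ctsl* rose by 1.26 (adjusted p = 2.96e-06).

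The hydrolases of sphingolipid breakdown were mixed in size and direction of change at P8. *Gla*, alpha-galactosidase A, rose by 1.11 (adjusted p = 7.6e-06), and *Hexa*, which encodes a hexosaminidase subunit, rose by 0.66 (adjusted p = 4.35e-06). The sialidase gene *Neu1* rose by 0.68 (adjusted p = 8.87e-05). Acid ceramidase (*Asah1*) and galactosylceramidase (*Galc*) stood at log2 differences of 0.57 and 0.51, under the fold limit. Arylsulfatase A (*Arsa*) had a mean of 43.6 CPM in WT and 34.9 in cKO, and acid sphingomyelinase (*Smpd1*) 86.4 and 66.7. Both were lower in cKO and neither was called. *Grn*, which encodes progranulin, a partner of prosaposin in its transport to the lysosome, rose by 0.88 (adjusted p = 0.00366). Of the receptors that carry prosaposin inward, *Sort1* (sortilin) stood at 0.52 and *Lrp1* at 0.01, and neither was called. These genes beyond *Ctsd* and *Ctsb* are named after their values were seen.

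At P1 1 of 20 rose, near the 4.01% of all genes called higher, *Igf2r*, the mannose 6-phosphate receptor that also sorts lysosomal enzymes, by 0.67 (adjusted p = 6.63e-05), and 0 fell (0 at an unadjusted p and by DESeq2). At P6 none was called in either direction (0 at an unadjusted p and by DESeq2). The median log2 difference of the list was -0.0815, 0.107 and 0.548 over the 3 days, beside 0, 0 and 0.0119 over all genes and -0.0071, -0.13 and 0.68 for *Psap*.

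The 20 other lysosome genes, for membrane proteins, further hydrolases, the proton pump and their transcription factors, were also called at P8 in 1 direction. There 9 of 20 rose and 0 fell (0 at an unadjusted p and by DESeq2), against 11.2% of all genes higher, and by the adjusted p alone 17 were higher and 1 lower. *Lamp1*, a membrane protein of lysosomes, stood at 1078 and 1074 CPM in WT and 1864 and 1847 in cKO, a rise of 0.79 (adjusted p = 4.27e-08). *Lamp2* differed by 0.16 and was not called. With a fold change of at least 2, 1 of these 20 rose, and so did 5 of the 20 genes of prosaposin handling. The share of all genes at that limit is not given here, so no difference between the lists is drawn from these counts. The largest rise of the 9 was that of the lipase gene *Lipa* at 1.08 (adjusted p = 4.6e-08), named after its value was seen. At P1 and P6 none of the 20 was called by edgeR (at P1 1 was lower at an unadjusted p and by DESeq2, and at P6 0 by either). The list's median log2 difference was -0.0518, -0.0362 and 0.562 at P1, P6 and P8.

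**Figure D3:**
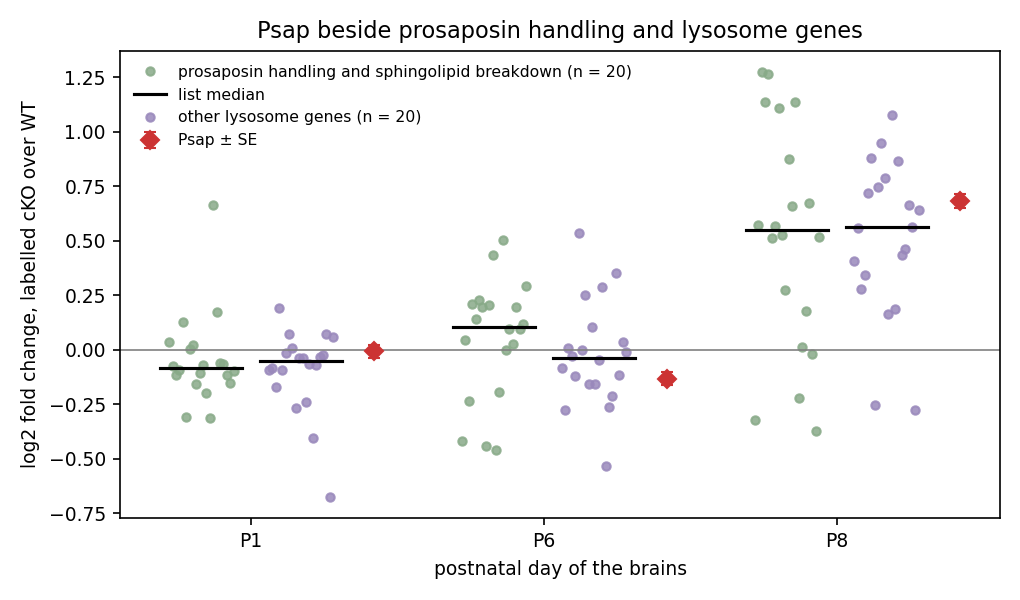
Log2 fold change, labelled cKO over labelled WT, of 20 genes of prosaposin handling and sphingolipid breakdown and of 20 other lysosome genes (circles, with list medians as lines) and of Psap (diamond, ± SE) at P1, P6 and P8. At P8 both medians lie close together (0.548 and 0.562), with Psap at 0.68, and at P1 and P6 they lie between -0.0815 and 0.107.

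Set against the summed CPM of the other lysosome genes, *Psap* varied little. Per 1000 CPM of that sum it stood at 391 and 395 CPM in WT and 401 and 404 in cKO at P1, at 381 and 388 in WT and 345 and 344 in cKO at P6, and at 369.9 and 358 in WT and 383 and 389 in cKO at P8. Over the step from P6 to P8, the prosaposin list had 0 of 20 genes called higher and 3 lower in WT (0 higher at an unadjusted p), against 8.66% and 10.3% of all genes. In cKO it had 4 higher and 2 lower, against 11.9% and 12.2%. Its median log2 step was -0.363 in WT and 0.187 in cKO, where *Psap* stood at -0.30 and 0.51.

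Lysosomal genes are highly expressed in microglia, and microglia markers moved with the label at P8. There 8 of 12 rose and 1 fell, against 11.2% and 8.37% of all genes, with a median log2 difference of 1.03, and their sum was 4299 to 4484 CPM in WT and 7741 to 7789.5 in cKO. *C1qa*, a complement gene of microglia, rose by 1.26 (adjusted p = 1.67e-07), *C1qc* by 1.25 (adjusted p = 6.28e-08) and the microglial cathepsin gene *Ctss* by 0.85 (adjusted p = 3.64e-07). The one that fell was *Tmem119*, at -1.38 (adjusted p = 1.29e-06), named after its value was seen. At P1 the sum was 5459 to 5511 CPM in WT and 4511 to 4598 in cKO, and at P6 3599.5 to 3771 in WT and 3786 to 3937 in cKO.

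Per 1000 CPM of summed microglia markers, *Psap* stood at 479 and 482 CPM in WT and at 431 and 442 in cKO at P8, so on that scale it was lower in cKO. At P1 the values were 495 and 506.5 in WT and 604 and 596 in cKO. At P6 they were 705.0 in both WT libraries and 606 and 623 in cKO. The part of the microglia markers in the difference of *Psap* and the lysosome genes was not tested.

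**Figure D4:**
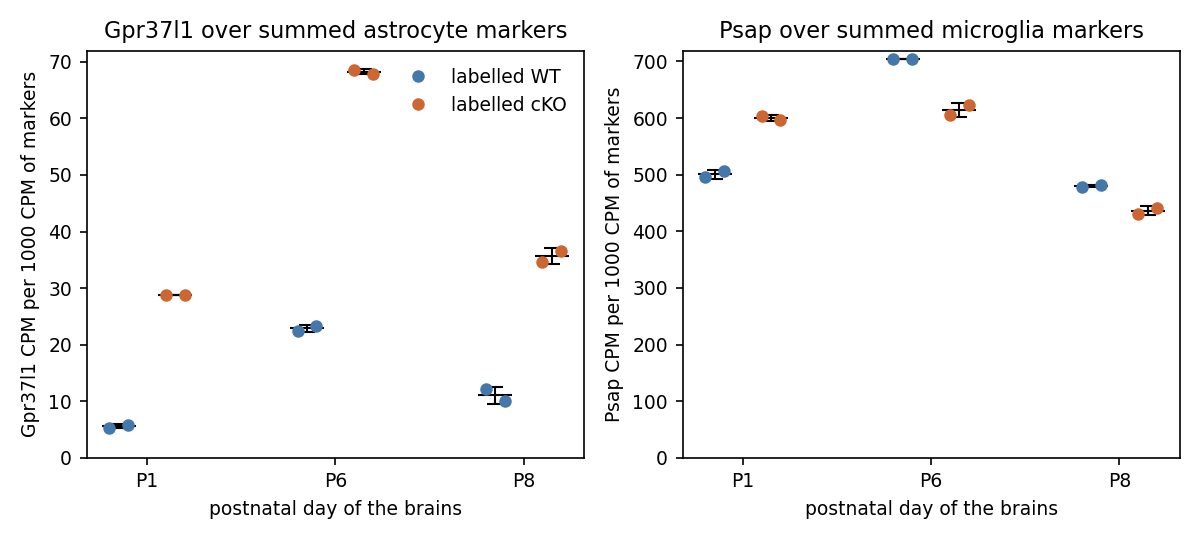
Gpr37l1 CPM per 1000 CPM of summed astrocyte markers (left) and Psap CPM per 1000 CPM of summed microglia markers (right) in each library, by postnatal day and label; lines and bars are the mean and SD of 2. Gpr37l1 stays higher in cKO on every day, while Psap is lower in cKO at P8 (431 and 442 against 479 and 482).

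Downstream of the receptors, the genes of the Gi/o arm were called in both directions. Of 20 measured G protein, adenylyl cyclase, arrestin and receptor kinase genes, 1 rose and 0 fell at P1 (0 at an unadjusted p and by DESeq2), 1 rose and 4 fell at P6, and 5 rose and 1 fell at P8. Over all genes, 4.01% were called higher and 0.892% lower for P1, 7.16% and 6.38% for P6, and 11.2% and 8.37% for P8, so the single rise at P1 is near the share of all genes. *Adcy1*, an adenylyl cyclase, rose on all 3 days, by 0.78, 1.51 and 0.94 on the log2 scale (adjusted p = 0.00272, 1.56e-05 and 0.000206). It stood at 29.8 and 27.1 CPM in WT and 80.4 and 81.9 in cKO at P6. *Gnai1*, an inhibitory G alpha subunit, differed by -0.20 at P1 (adjusted p = 0.281) and fell by 0.82 at P6 and 0.84 at P8 (adjusted p = 0.000207 and 0.000111). At P8 it stood at 29.9 and 27.9 CPM in WT and 15.7 and 16.7 in cKO. The list's median log2 difference was -0.171, -0.0268 and 0.131. Without the first cKO library of P6, 3 genes rose at P6.

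In the endothelin system, to which the receptors are related in sequence, 6 of 10 listed genes were measured. *Edn1*, which encodes the peptide endothelin-1, stood at 3.61 and 5.52 CPM in WT and 21.6 and 18.9 in cKO at P6, and at 0.706 in both WT libraries and 7.86 and 8.65 in cKO at P8. It rose by 2.15 at P6 and 3.54 at P8 (adjusted p = 4.84e-05 and 2.55e-06), and at P1 it differed by 0.34 (adjusted p = 0.352). *Ednra*, its type A receptor, fell by 1.03 at P6 and 1.63 at P8 (adjusted p = 0.000381 and 1.15e-05) and differed by -0.05 at P1. At P8 it stood at 23.3 and 22.1 CPM in WT and 7.35 and 7.30 in cKO. The type B receptor gene *Ednrb* was not called on any day, with log2 differences of -0.54, -0.32 and -0.14. At P1 no gene of the 6 was called by edgeR, and 1 was higher at an unadjusted p and by DESeq2. At P6 2 rose and 1 fell, against 7.16% and 6.38% of all genes. At P8 1 rose and 1 fell, against 11.2% and 8.37%. The other gene that rose at P6 was *Ece2*, named after its values were seen, at means of 17.3 CPM in WT and 28.8 in cKO. At P8 it stood at 26.2 in WT and 20.3 in cKO and was not called.

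Of 7 reported partners of the receptors 4 were measured. *Ptch1*, the hedgehog receptor that GPR37L1 has been reported to contact, differed by -0.15 at P1 and -0.46 at P6, under the fold limit, and fell by 1.17 at P8 (adjusted p = 1.76e-06), from 146.8 and 150.8 CPM in WT to 66.1 and 65.8 in cKO. *Smo*, the hedgehog signal transducer, fell by 0.59 at P8 (adjusted p = 8.98e-05). *Slc1a3*, an astrocyte glutamate carrier, was not called on any day and stood at 0.00063, -0.15 and -0.44. *Slc1a2*, the other glutamate carrier, named after its values were seen, stood at 94.5 and 101.8 CPM in WT and 50.6 and 47.4 in cKO at P8, a ratio of 0.499 that was not called (adjusted p = 0.256). Its cKO libraries of P1 lay far apart, at 12.6 and 84.2 CPM. So 2 of 4 fell at P8, against 8.37% of all genes, and 0 were called at P1 and P6 (0 at an unadjusted p and by DESeq2). Leaving out 1 library at a time gave 1 to 3 lower at P8, with 1 without the first WT or the second cKO library of P8, and 1 lower at P1 without the second cKO library of P1.

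The genes whose pattern over the 12 libraries lay closest to that of *Gpr37l1* were *Sema3b*, *Hr*, *Il34* and *En2*. Likeness was the root mean square difference of log2 CPM, each gene centred on its own mean, among 15145 genes with a mean of at least 1 CPM. It was 0.42 for *Sema3b*, a secreted semaphorin, 0.436 for *Hr*, a corepressor of nuclear receptors, 0.466 for *Il34*, a ligand of the CSF1 receptor, and 0.468 for *En2*, a homeobox factor of midbrain and cerebellum. The median distance of all genes from *Gpr37l1* was 1.12. *Il34* followed it most closely in the label difference, with log2 differences of 2.035, 1.54 and 0.73 at P1, P6 and P8. *Sema3b*, *Hr* and *En2* differed by more at P6 (2.15, 1.78 and 1.35) than at P1 (1.39, 1.31 and 1.24), unlike *Gpr37l1*. The 12 libraries share 6 groups and depth, so these distances are a description.

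For *Psap* the closest were *Vps33a* at 0.0513, *Slc48a1* at 0.062, *Actr2* at 0.0729 and *Snx5* at 0.073, against a median of 0.378. *Vps33a* encodes a tethering protein of late endosomes and lysosomes, *Slc48a1* a haem carrier of endolysosomes, *Actr2* a subunit of the Arp2/3 actin complex and *Snx5* a sorting nexin. All 4 had their highest group mean in cKO at P8 and their lowest in WT at P8, as *Psap* had. Their log2 differences at P8 were 0.72, 0.68, 0.58 and 0.61, and at P1 they lay between -0.16 and -0.036.

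**Figure D5:**
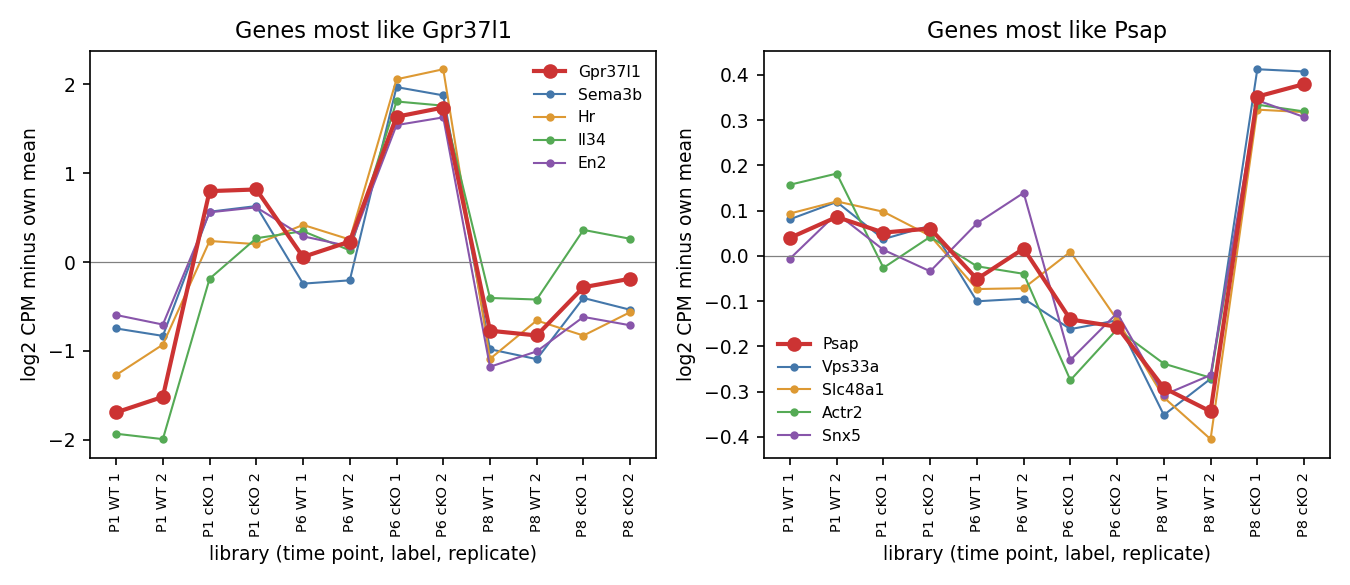
Log2 CPM minus each gene's own mean in the 12 libraries for Gpr37l1 with its 4 closest genes (left) and for Psap with its 4 closest (right). The left group peaks in cKO at P6, and the right group is highest in cKO and lowest in WT at P8.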

How the data were processed

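The values were raw counts, whole numbers of reads per gene that the authors deposited without normalization for 12 libraries. Per the submitters' processing notes reads were mapped with HISAT2 to mm10 (GRCm38), and the counting program, its annotation and its strand setting are each not given in the sources used here. The methods name ballgown and DESeq2 with limits on p and fold change. The model was made by edgeR 4.0.16 under R 4.3.3 (TMM scaling, low counts filtered, quasi-likelihood test, 1 mean per group, all libraries in 1 fit), leaving 17938 of 18903 genes. Adjusted p-values (Benjamini-Hochberg) are over all of these, and genes were called below 0.05 at a fold change of at least 1.5. DESeq2 1.42.0 was an alternative. The fits were tested on simulated data. Total counts were 54413504 to 89183250, and replicates differed by more than counting noise (chi-square per degree of freedom 30.5 to 47.1). Positions and exon lengths came from GENCODE, and promoters from RefSeq, which held both genes.

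The genes, lists and tests were chosen with earlier results of these data known, and the levels relative to marker sums, counts at any fold and joint interaction tests were added after the values were seen. Named genes were the members, the genes of each pathway list called in 2 or more label comparisons (at most 4, or, with fewer than 2 such, the 2 most abundant), the 3 most abundant of each marker list and the 4 most like each member. Of the names listed, those with no row are not analysed here, and a few others are not reported here. A name on 2 identifiers, *Ece2*, was read from the identifier to which GENCODE gives it.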

Additional observations from a re-analysis of the deposited data

Results flagged for a closer look

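*Psap* was flagged because its libraries separated in opposite directions at different time points. Both libraries labelled cKO lay below both labelled WT at P6, with a log2 difference of -0.131, and above them at P8, with a log2 difference of 0.684, and this difference between time points was not tested.

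The pathway genes and markers below were flagged because the difference between labels itself differed over the 3 time points, by a joint edgeR interaction test that called 5523 of 17938 genes (30.8%) and 32 of 36 named genes. The named genes were picked by calls in these same label comparisons or by abundance. Their count therefore cannot be read against the share of all genes. Among the pathway genes the adjusted p was 8.77e-09 for *Ctsb*, 6.44e-07 for *Ctsd*, 6.08e-07 for *Lamp1* and 0.00178 for *Lamp2*. It was 9.7e-05 for *Edn1*, 0.000453 for *Ednra*, 0.000125 for *Ptch1*, 0.0408 for *Slc1a3*, 0.0154 for *Adcy1* and 0.008 for *Gnai1*.

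Among the markers the adjusted p of the same edgeR test was 3.6e-06 for *Aqp4*, 1.99e-06 for *Gfap* and 0.0016 for *Glul* of astrocytes, and 1.95e-06 for *C1qa*, 2.84e-06 for *Ctss* and 6.11e-07 for *C1qc* of microglia. For oligodendrocyte lineage genes it was 0.0228 (*Cnp*), 7.3e-06 (*Cspg4*) and 0.0105 (*Olig1*), and for fibroblast collagens 6.73e-09 (*Col1a1*), 1.22e-10 (*Col1a2*) and 1.93e-10 (*Col3a1*). Neuron markers gave 7.23e-07 (*Stmn2*) and 0.00875 (*Syt1*), and endothelial markers 1.02e-07 (*Cdh5*), 0.00719 (*Flt1*) and 0.0254 (*Kdr*). The mural marker *Pdgfrb* gave 3.75e-06, the ependymal and choroid plexus markers *Foxj1* and *Ttr* 0.00191 and 0.0347, and the proliferation markers *Mki67* and *Top2a* 0.00485 and 0.0215.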

How the results depend on the processing

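No called difference changed direction. Near 0, *Psap* at P1 turned from -0.00711 to 0.01681 without the second WT library of P1, and 8 named genes, *Slc1a3*, *Ednra* and *Glul* at P1 among them, changed sign in comparisons where they were not called when 1 library was left out. CPM without TMM scaling gave 16.39 for *Gpr37l1* in WT at P1 and 2937, 2863, 2294 and 3200.0 for *Psap* in WT and cKO at P1 and cKO at P6 and P8, in the same order. Size factors from DESeq2, keeping genes of low count and a fit within 1 time point moved no count of calls by over 1.5 times. With a fold change of at least 2, the Gi/o counts were 0 higher at P1 and P8 and 0 lower at P6 and P8, the prosaposin list 0 higher at P1 and 5 at P8, the other lysosome genes 1 higher at P8, the endothelin system 1 higher at P6 and the partners 1 lower at P8. The share of all genes at that limit is not given here. With DESeq2, and equally at an unadjusted p, the Gi/o list had 2 higher at P6, the other lysosome genes 1 lower at P1 and the endothelin system 1 higher at P1. The cause was not tested.

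Leaving out 1 library at a time, the log2 difference of *Gpr37l1* ran from 2.326 to 2.504 at P1 and 1.458 to 1.626 at P6, and that of *Psap* at P6 from -0.1645 to -0.1036. Changes of the difference of *Gpr37l1* ran from -0.9682 to -0.7856 (P1 to P6), -1.061 to -0.8922 (P6 to P8) and -1.939 to -1.76 (P1 to P8), and of *Psap* from -0.1575 to -0.0958 (P1 to P6) and 0.7869 to 0.8488 (P6 to P8). Steps in WT ran from 1.662 to 1.844 and -1.031 to -0.86 for *Gpr37l1*, and from -0.1136 to -0.04757 and -0.3336 to -0.2687 for *Psap*, where the first step was smallest without the first WT library of P6. Counts of calls ran from 1 to 2 (Gi/o, P1, higher), 1 to 3 (Gi/o, P6, higher; 3 without the first cKO library), 1 to 3 (partners, P8, lower) and 0 to 1 for the other lysosome genes at P1 (lower), P6 (each way) and P8 (lower), the prosaposin list at P6 (lower), the endothelin system at P1 (higher) and the partners at P1 (lower).

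With the replicate block, *Gpr37l1* differed by 2.415, 1.543 and 0.5633 and *Psap* by -0.007021, -0.1312 and 0.6834, and no count of calls moved by over 1.5 times. Same-numbered libraries deviated with correlations of -0.03, -0.00553 and -0.0627 at P1, P6 and P8, so no common deviation was seen. These correlations do not show whether such libraries shared a litter or preparation. *Syt1* at P8 lost its call with the replicate block (adjusted p = 0.0641, edgeR) and in 13 settings in all. The other named genes that lost a call in some setting were the markers *Kdr*, *Pdgfrb*, *Rgs5*, *Foxj1*, *Ttr* and *Mki67*, none of them a pathway gene.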
